A study of Homo sapiens with 5 samples.

Results

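The acyl-CoA thioesterases, named ACOT for short, were followed across the 5 arrays of a study on MHCC97H cells, a human hepatocellular carcinoma line, that carried an ACOT12 transgene or none. The family was taken as 10 genes (ACOT1, ACOT2, ACOT4, ACOT6, ACOT7, ACOT8, ACOT9, ACOT11, ACOT12 and ACOT13), and its members on the array as every probe annotated to one of these symbols. That gave 15 probes of 9 genes among 28264 probes of 19090 named genes, and no probe used here carries the symbol ACOT1. The groups were cells with an ACOT12 mutant (n = 1), cells with ACOT12 (n = 2) and cells with the empty vector (n = 2). All were stable cells selected with puromycin for a week, the empty vector cells included, and were kept in DMEM with fetal bovine serum. The labels do not say which residues the mutant changes, whether the stable cells were pools or clones, or whether the replicates were separate cultures, so the p-values cover only the differences among these samples, part of which may be technical.

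Thioesterases of this family cut an acyl-CoA into the free acid and coenzyme A, the reverse of what the acyl-CoA synthetases do, and each member has its own compartment and preferred chain length. The type I members (ACOT1, ACOT2, ACOT4 and ACOT6) share an alpha/beta-hydrolase fold, while the type II members (ACOT7, ACOT8, ACOT9, ACOT11, ACOT12 and ACOT13) are built from hotdog-fold domains. ACOT12 is the cytosolic, liver-enriched enzyme that hydrolyses acetyl-CoA, and with ACOT11 it carries a lipid-binding START domain. In mice several type I members are targets of the fatty acid sensor PPAR-alpha. By RefSeq's gene order on GRCh38.p14, ACOT1, ACOT2, ACOT4 and ACOT6 lie side by side on chromosome 14, with RIOX1 between ACOT1 and ACOT2, and the type II genes are spread over chromosomes 1, 5, 6, 20 and X.

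The start regions of 4 members are shown. ACOT12 is the gene the transgene adds to, and ACOT11 is its START-domain relative. ACOT13 is a member whose brighter probe kept all 3 groups apart. ACOT11 probe PH_hs_0012803 and ACOT2 probes PH_hs_0062222 and PH_hs_0027480 did so too. Such separation was common: ACOT12 lay wholly above empty vector for 20.8% of all tested probes and below for 10.8%. The mutant lay above empty vector for 29.5% and below for 54.6%, and above ACOT12 for 22.0% and below for 51.9%. The share of all probes keeping all 3 groups apart is not given here. ACOT7 is the member whose probes parted most in the mutant array. RefSeq windows on GRCh38.p14 of 250 bases before to 50 bases after the annotated start were available for 9 of the 10 genes. CG pairs are in capitals and the gene's own strand is written 5′ to 3′. ACOT12 is at chr5:81394085-81394384 (minus strand), ACOT11 at chr1:54547978-54548277 (plus), ACOT13 at chr6:24666827-24667126 (plus), and ACOT7, which has 4 annotated starts, is shown at its outermost ones, chr1:6393718-6394017 and chr1:6358880-6359179 (minus).
ACOT12: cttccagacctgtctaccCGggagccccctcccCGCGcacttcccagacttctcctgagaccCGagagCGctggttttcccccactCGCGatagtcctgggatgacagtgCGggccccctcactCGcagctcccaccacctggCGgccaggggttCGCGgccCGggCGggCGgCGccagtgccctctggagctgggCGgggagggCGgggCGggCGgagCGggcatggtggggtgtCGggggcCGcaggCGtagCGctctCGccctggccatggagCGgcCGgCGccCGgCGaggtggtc
ACOT11: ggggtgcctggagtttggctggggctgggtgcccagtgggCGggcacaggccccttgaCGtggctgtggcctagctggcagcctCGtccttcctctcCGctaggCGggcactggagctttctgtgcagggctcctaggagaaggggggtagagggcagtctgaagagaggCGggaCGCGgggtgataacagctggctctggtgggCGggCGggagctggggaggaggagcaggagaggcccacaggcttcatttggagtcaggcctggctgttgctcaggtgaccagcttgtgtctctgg
ACOT13: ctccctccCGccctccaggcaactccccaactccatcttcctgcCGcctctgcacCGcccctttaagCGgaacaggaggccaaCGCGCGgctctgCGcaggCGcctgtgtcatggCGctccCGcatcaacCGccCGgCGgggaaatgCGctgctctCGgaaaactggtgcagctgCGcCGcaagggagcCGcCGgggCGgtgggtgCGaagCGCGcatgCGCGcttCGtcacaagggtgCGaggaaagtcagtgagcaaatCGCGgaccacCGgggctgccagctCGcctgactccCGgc
ACOT7 upstream start: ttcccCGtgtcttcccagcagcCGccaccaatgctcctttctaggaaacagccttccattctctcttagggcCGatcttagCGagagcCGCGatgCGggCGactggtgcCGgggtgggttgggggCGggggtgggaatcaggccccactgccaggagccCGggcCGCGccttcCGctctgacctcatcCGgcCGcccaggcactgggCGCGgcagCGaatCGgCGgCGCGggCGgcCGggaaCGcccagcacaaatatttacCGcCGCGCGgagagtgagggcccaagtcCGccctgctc
ACOT7 downstream start: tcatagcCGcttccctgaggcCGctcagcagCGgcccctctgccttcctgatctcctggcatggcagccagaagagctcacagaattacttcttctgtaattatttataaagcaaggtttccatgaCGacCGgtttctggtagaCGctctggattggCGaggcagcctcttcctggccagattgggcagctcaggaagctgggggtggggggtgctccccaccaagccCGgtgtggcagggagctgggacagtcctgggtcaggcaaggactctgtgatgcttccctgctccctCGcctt
The ACOT12 window held 31 CG pairs, more than 79.3% of the 35116 windows of this length in the RefSeq table, whose median was 14. ACOT13 held 33 and ACOT11 held 10. The upstream ACOT7 window held 31 CG pairs, and the downstream one 9. The motif TATAAA, searched on both strands, occurred in the downstream ACOT7 window and in no other family window, against 11.5% of all windows. AGGTCA, the nuclear receptor half-site, occurred on either strand in the upstream ACOT7 window alone among the family windows, against 13.8% of all windows. Such matches describe these letters and show no binding.

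Values are deposited probe intensities on a linear scale, and differences are given on the log2(intensity + 1) scale with limma's moderated standard error (SE). Median intensity over all probes was 616 with the mutant, 816 and 825 with ACOT12, and 805 and 699.9 with empty vector. Within each array every value under 20000 was a whole multiple, within 0.02 steps, of 1 fixed step (0.913 with the mutant, 1.03 and 0.939 with ACOT12, 1.02 and 1.13 with empty vector). The deposited numbers are thus whole numbers multiplied by a single factor per array. The dim end of the arrays differed: the 10th percentile of all probes was 48.4 with the mutant, 74 and 80.8 with ACOT12, and 50 and 31.5 with empty vector. Of the 15 family probes 12 passed the filter on dim probes (mean log2 value at or above 7.34) and were tested. ACOT6, the dimmer ACOT4 probe and the dimmer ACOT13 probe did not pass, and ACOT12 passed through its readings in the 3 transgene arrays. Of 16 hepatocyte markers 14 were on the array, and the liver cancer antigen AFP read 3813 with the mutant, 3480.1 and 3379.8 with ACOT12, and 3607 and 3764 with empty vector. Albumin (ALB) read 853 with the mutant, 1755 and 1209 with ACOT12, and 2771 and 2842.5 with empty vector. Of 9 immune markers 8 were on the array, with a summed intensity of 21066 with the mutant, 21434 to 25600 with ACOT12 and 21399.8 to 22032 with empty vector. They did not move together: the macrophage marker CD68 was highest in the mutant array (11186 there, 9213 and 10027 with ACOT12, 8334 and 8177 with empty vector), while the dim leukocyte antigen PTPRC was lowest there (26.5, against 104 and 116 with ACOT12 and 89.9 and 42.8 with empty vector).

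**Figure D1:**
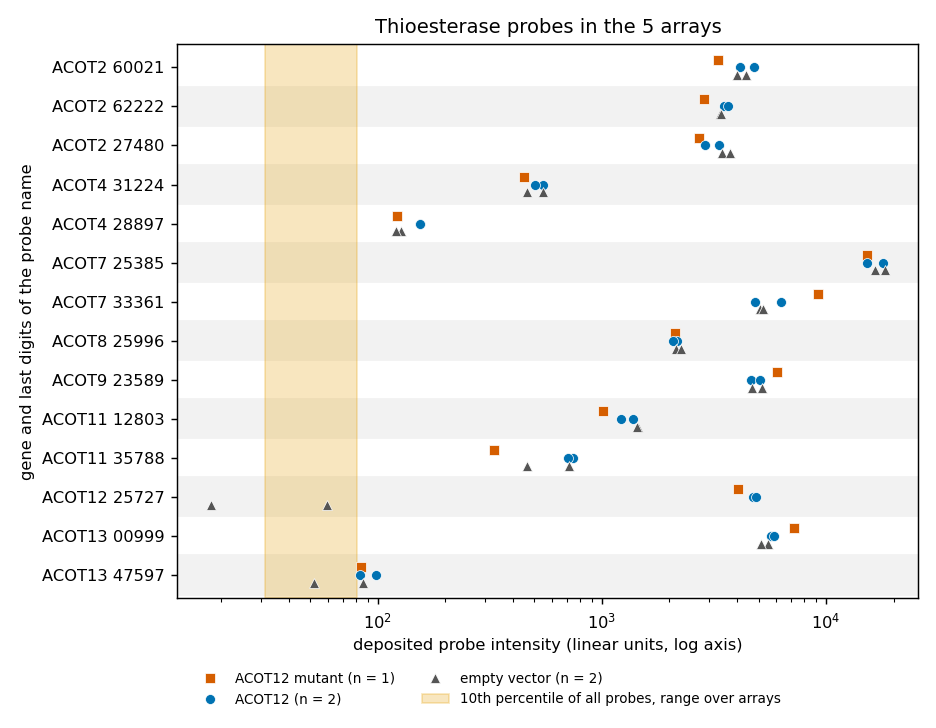
Deposited intensity (log axis) of 14 thioesterase probes, 1 row per probe, with squares for the mutant array, circles for the 2 ACOT12 arrays and triangles for the 2 empty vector arrays. The shaded band spans the 10th percentiles of the 5 arrays (31.5 to 80.8). ACOT6 is left out because its readings in the empty vector arrays were below 0. ACOT12 is the 1 probe shown whose groups lie orders of magnitude apart, and the mutant square lies to the right for 1 ACOT7 probe, ACOT9 and the brighter ACOT13 probe and to the left for ACOT11.

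ACOT12 itself was read by 1 probe (PH_hs_0025727). It gave an intensity of 4029.6 with the mutant, 4733 and 4859 with ACOT12, and 59.2 and 18 with empty vector. Both transgene groups were far above the empty vector cells, whose readings amounted to 58 and 16 unscaled units, at percentiles 11.5 and 6.29 of their own arrays. Both empty vector readings lay under the filter on dim probes, so the size of the difference is a lower bound: set against the filter level, ACOT12 RNA was at least 24.9-fold higher with the mutant and at least 29.7-fold higher with ACOT12. That floor was chosen after the values were seen. With the empty vector readings taken as measured, the fit gave log2 differences of 6.90 ± 0.61 for the mutant (limma, adjusted p = 0.051) and 7.15 ± 0.50 for ACOT12 (adjusted p = 0.109), neither past the threshold of 0.05. Since the probe entered the test through the transgene arrays, these p-values are given as a description only. In both comparisons 12 of the 17 alternative settings that gave this probe a value put it past the threshold, but limma's prior degrees of freedom, which set how far a probe's own spread counts, ran from 2.35 to 185 among them, against 4.22 as reported. Without empty vector replicate 1 the ACOT12 difference was 7.98, and without replicate 2 it was 6.32. Both passed, with prior degrees of freedom of 14.8. Without ACOT12 replicate 1 or 2 it did not (limma, adjusted p = 0.697 and 0.901, prior 2.41). For the mutant the difference was 7.73 without empty vector replicate 1 and 6.07 without replicate 2, both passing, and without ACOT12 replicate 1 or 2 adjusted p was 0.263. With an offset at the 10th percentile of all intensities (57.2) in place of 1, the difference was 5.45 for the mutant and 5.70 for ACOT12, so its size depends on how the dim end is treated.

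Whether ACOT12 RNA differed between the mutant and the ACOT12 cells was not resolved. The mutant array lay below both ACOT12 arrays, with a log2 difference of −0.25 ± 0.61 (interval −1.72 to 1.22, limma, adjusted p = 0.869). That direction turned with median centring (0.16) and cyclic loess (0.11). The probe's place in the transcript is not in the files used here, so vector-derived and endogenous ACOT12 RNA cannot be told apart.

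Among the tested genes outside the family, none had as wide a gap as ACOT12 between transgene and empty vector arrays. Likeness to ACOT12 was measured over the 5 arrays as the log2 gap between the lowest of the 3 transgene arrays and the highest of the 2 empty vector arrays. ACOT12 had a gap of 6.06, and the next were MB (myoglobin, 1.02), CYP1A1 (a cytochrome P450 induced through the aryl hydrocarbon receptor, 0.93), LOXL4 (a lysyl oxidase of the matrix, 0.88), CDA (cytidine deaminase, 0.83) and MEGF6 (0.72). MB read 272 with the mutant, 262 and 263 with ACOT12, and 127 and 128 with empty vector, but its other probe had a gap of −0.31. The other MEGF6 probe had a gap of 0.071. A gap above 0 was found for 1544 of the 19533 tested named probes outside the family (7.9%). Probes under the filter were not ranked: of 6345 such named probes, 680 had a wider gap than MB, up to 5.08, in the range where the dim end of the arrays differs.

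Between the ACOT12 and empty vector arrays, which bear on whether the rest of the family moves when ACOT12 is added, no other member passed the test. A p that misses the threshold does not show equal levels, and the intervals give the sizes left possible. Of the 11 tested probes other than ACOT12, 0 passed limma's adjusted test in either direction, where 0% of the 21198 tested probes passed as higher and 0% as lower. At an unadjusted p under 0.05, 0 of the 11 were higher (against 2.66% of all probes) and 0 were lower (against 0.415%). They lay between −0.21 and 0.33, with adjusted p from 0.987 to 0.999. Their median of 0.06 equalled that over all tested probes to 2 decimals, and 6 of 11 read higher, against 62.9% of all. The ACOT12 arrays lay wholly above the empty vector arrays for 2 of the 11 (ACOT13 and ACOT2 PH_hs_0062222), against 20.8% of all probes, and wholly below for 2 (ACOT2 PH_hs_0027480 and ACOT11 PH_hs_0012803), against 10.8%.

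**Figure D2:**
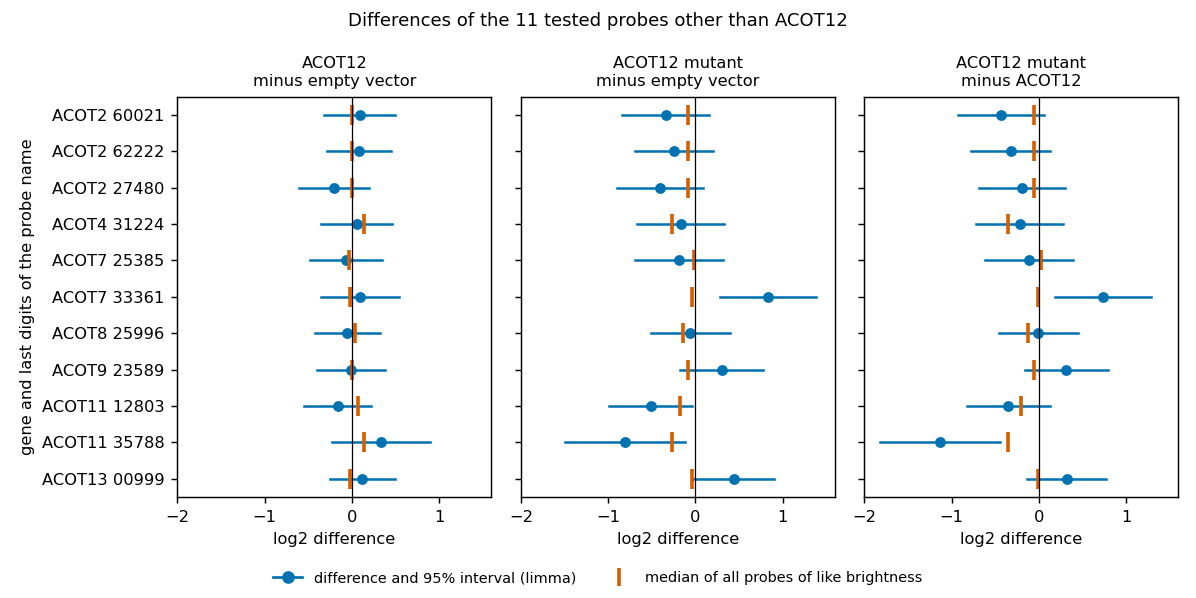
Log2 difference (x axis) of the 11 tested family probes other than ACOT12 in the 3 comparisons, with limma's 95% intervals as lines. Orange ticks are the medians of all probes of like brightness. In the ACOT12 comparison every interval spans 0. In both mutant comparisons ACOT7 probe PH_hs_0033361 lies above 0 and ACOT11 probe PH_hs_0035788 below it with their intervals.

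ACOT11, known from mice as a thermogenesis-linked thioesterase of brown fat, is the START-domain relative of ACOT12. Its probe PH_hs_0012803 read 1013 with the mutant, 1214 and 1373 with ACOT12, and 1449.9 and 1438 with empty vector. The mutant was lowest, the ACOT12 arrays lay between, and the empty vector arrays were highest without overlap. Its second probe, PH_hs_0035788, read 329.6 with the mutant, 744 and 708 with ACOT12, and 714 and 465 with empty vector. Here too the mutant was lowest, but the ACOT12 arrays overlapped with the empty vector arrays. The differences of mutant from empty vector were −0.51 ± 0.19 (interval −0.98 to −0.04, unadjusted 0.038, limma adjusted p = 0.213) and −0.80 ± 0.28 (interval −1.49 to −0.11, unadjusted 0.0288, adjusted p = 0.188). Neither passed, and both stayed negative under every alternative that gave them a value. Without empty vector replicate 2 the second probe's difference was −1.11 and passed (adjusted p = 0.0154), and without replicate 1 it was −0.50 (adjusted p = 0.534). Probes of like brightness had medians of −0.18 and −0.27 in this comparison.

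Against ACOT12, the second ACOT11 probe had the smallest p of the family, at −1.14 ± 0.28 (interval −1.83 to −0.45, limma, adjusted p = 0.0589), where probes of like brightness had a median of −0.35. With median centring, which raised the median of all tested probes in this comparison, it was −0.72. Leaving out 1 replicate at a time gave −1.17 to −1.10. The first probe gave −0.35 ± 0.19 (interval −0.82 to 0.12, adjusted p = 0.379) and turned to 0.062 with median centring. With ACOT12 itself against empty vector the probes went opposite ways, at −0.16 ± 0.16 and 0.33 ± 0.23, and neither passed. This gap of 0.49 between probes was reached or exceeded by 5.55% of the 3385 genes with 2 tested probes.

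ACOT7 is the cytosolic long-chain thioesterase best known from brain, where it handles arachidonoyl-CoA. Its probe PH_hs_0033361 read 9169.6 with the mutant, 4834 and 6265 with ACOT12, and 5060.2 and 5253 with empty vector. The mutant stood above all other arrays, while ACOT12 and empty vector overlapped. Probe PH_hs_0025385 of the same gene read 15300.3 with the mutant, 15293 and 18012 with ACOT12, and 16518 and 18278 with empty vector, and the mutant lay within the ACOT12 readings. The first probe differed from empty vector by 0.83 ± 0.23 (interval 0.28 to 1.38, limma, adjusted p = 0.124) and from ACOT12 by 0.74 ± 0.23 (interval 0.19 to 1.29, adjusted p = 0.105) in the mutant. The second differed by −0.18 ± 0.21 and −0.12 ± 0.21. None of the 4 passed. With median centring, PH_hs_0033361 differed by 1.11 from empty vector and 1.15 from ACOT12 in the mutant. That setting also raised the median of all tested probes in both comparisons.

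The log2 ratio of the dimmer to the brighter ACOT7 probe within an array was −0.74 in the mutant, −1.66 and −1.52 with ACOT12 and −1.71 and −1.80 with empty vector. The probes of this gene thus disagreed by 1.01 in the mutant's difference from empty vector, and 6.71% of genes with 2 tested probes disagreed by as much or more. A ratio within an array shows unequal change of the 2 probes and not which of them followed the gene. Which of the gene's transcripts each probe matches is not given in the sources used here, so neither probe can be assigned to an annotated start.

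**Figure D3:**
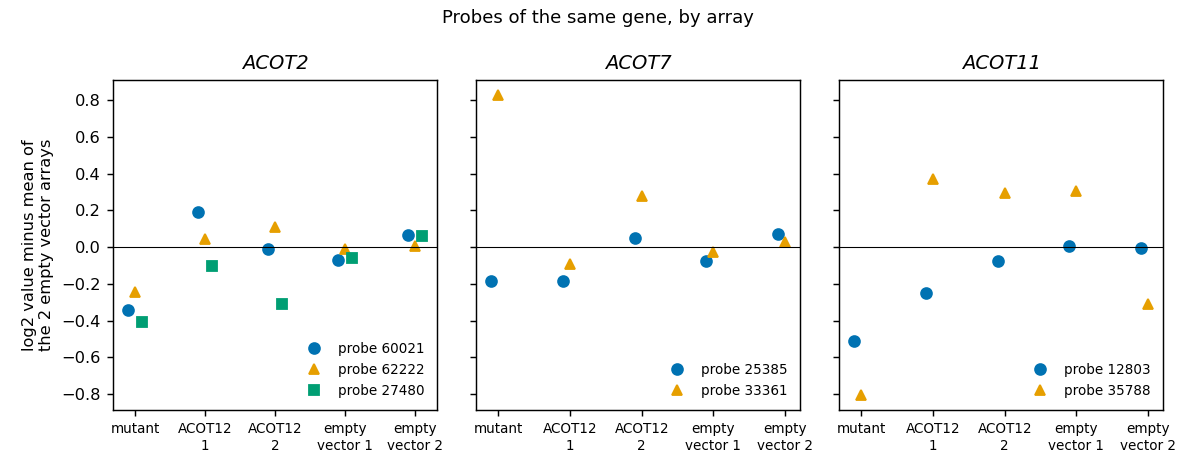
Log2 value minus the mean of the 2 empty vector arrays (y axis) for each probe of ACOT2, ACOT7 and ACOT11 in the mutant, ACOT12 and empty vector arrays. The 3 ACOT2 probes lie together below 0 in the mutant array (−0.41 to −0.25), the ACOT7 probes part there (0.83 and −0.18), and both ACOT11 probes are lowest there.

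ACOT13, also called THEM2, is a long-chain thioesterase that works with the phosphatidylcholine transfer protein PCTP. Its brighter probe (PH_hs_0000999) read 7191 with the mutant, 5685 and 5861 with ACOT12, and 5488 and 5121 with empty vector. The groups did not overlap in any pair, with the mutant highest. The differences were 0.44 ± 0.19 for mutant over empty vector (interval −0.02 to 0.90, limma, adjusted p = 0.260), 0.32 ± 0.19 for mutant over ACOT12 (adjusted p = 0.413) and 0.12 ± 0.15 for ACOT12 over empty vector (adjusted p = 0.999). With median centring, which raised the median of all tested probes in that comparison, the difference of mutant from ACOT12 was 0.73. The dimmer probe (PH_hs_0047597) read 84 with the mutant, 83.3 and 98.6 with ACOT12, and 85.8 and 51.8 with empty vector, close to the 10th percentile of the arrays, and its groups overlapped. PCTP read 2352 in the mutant, 2188 and 2176 with ACOT12 and 2434 and 2366 with empty vector. Its differences from empty vector were −0.03 for the mutant and −0.14 for ACOT12, and neither passed.

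Among the type I members, ACOT2 is the long-chain thioesterase of the mitochondrial matrix. Its probe PH_hs_0060021 read 3296 with the mutant, 4771 and 4144 with ACOT12, and 3987 and 4379 with empty vector. Probe PH_hs_0062222 read 2859.9 with the mutant, 3503 and 3665 with ACOT12, and 3371 and 3410.1 with empty vector. Probe PH_hs_0027480 read 2702 with the mutant, 3331 and 2885 with ACOT12, and 3431 and 3734 with empty vector. All 3 probes were lowest in the mutant array, below every other array. Of all tested probes, 54.6% read below both empty vector arrays in the mutant and 51.9% below both ACOT12 arrays. The differences of mutant from empty vector were −0.34 ± 0.20, −0.25 ± 0.19 and −0.41 ± 0.20 (limma, adjusted p from 0.324 to 0.510, the widest interval being −0.90 to 0.09), beside a median of −0.09 for probes of like brightness. With median centring the second was 0.038. With ACOT12 the probes read 0.09, 0.08 and −0.21 from empty vector, the last below both empty vector arrays. ACOT1 and ACOT2 are near-identical in sequence, and with no probe sequences in the files used here an ACOT2 reading may include ACOT1 RNA.

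ACOT4 is a peroxisomal type I member, as is ACOT6 in mice. The tested ACOT4 probe (PH_hs_0031224) read 448 with the mutant, 545 and 502 with ACOT12, and 545 and 464 with empty vector. The mutant was below all others, and ACOT12 overlapped with empty vector. Its difference of −0.17 ± 0.21 for mutant from empty vector (limma, adjusted p = 0.695) lay beside a median of −0.27 for probes of like brightness, and it turned to 0.16 after quantile normalization. The dimmer ACOT4 probe (PH_hs_0028897) read 121 with the mutant, 154 and 154 with ACOT12, and 127 and 121 with empty vector. Its ACOT12 difference of 0.32 from empty vector lay beside a median of 0.39 for probes of like brightness. ACOT6 read 5.48 in the mutant, 11.3 and 30.1 with ACOT12 and −4.08 and −13.5 with empty vector. Every ACOT6 reading lay under percentile 1 of its array. With values below 0 set to 0, its differences from empty vector were 2.70 for the mutant and 4.29 for ACOT12. The dimmest 10% of probes had medians of 1.05 and 1.73 and upper quartiles of 2.52 and 3.34. The probe was too dim for the reported test, so no difference of this gene is resolved.

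ACOT8 and ACOT9 complete the family. ACOT8, the broad-range thioesterase of peroxisomes, read 2113 with the mutant, 2161 and 2083 with ACOT12, and 2136 and 2264 with empty vector. It was the steadiest member, with a log2 range of 0.12 over all 5 arrays, and 1.17% of the tested probes had a smaller range. Its difference of mutant from empty vector was −0.06 ± 0.19 (interval −0.51 to 0.40) and that of ACOT12 −0.05 ± 0.15 (interval −0.42 to 0.32). ACOT9, a mitochondrial thioesterase, read 6043 in the mutant, 4643 and 5089.9 with ACOT12 and 5158 and 4662 with empty vector. The mutant was above every other array and the rest overlapped, at 0.30 ± 0.20 from empty vector (limma, adjusted p = 0.442) and 0.31 ± 0.20 from ACOT12 (adjusted p = 0.440). With median centring, which raised the median of all tested probes in that comparison, the difference from ACOT12 was 0.73.

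Over the 11 tested probes other than ACOT12 the median absolute difference from empty vector was 0.342 with the mutant and 0.0898 with ACOT12, where all tested probes had 0.269 and 0.127. From empty vector 0 of the 11 passed limma's adjusted test in the mutant array, where 0% of all tested probes passed as higher and 0.0283% as lower. At an unadjusted p under 0.05 there were 1 higher (ACOT7) and 2 lower (the ACOT11 probes), against 3.70% and 16.8% of all probes. The mutant lay above both empty vector arrays for 3 of the 11 and below both for 8, where 29.5% and 54.6% of all probes did so, and 36.8% of all read higher. Their median of −0.18 lay beside −0.13 over all tested probes. Against ACOT12, 0 of the 11 passed while 0.0613% of all probes passed as higher and 9.62% as lower. The unadjusted counts were 1 higher (ACOT7) and 1 lower (ACOT11), against 1.56% and 21.2%. The mutant lay above both ACOT12 arrays for 3 of the 11 and below both for 6, against 22.0% and 51.9% of all probes, and 3 read higher where 33.8% of all did. The mutant comparisons share an array, and both comparisons with empty vector share those arrays. Within groups, the tested members other than ACOT12 had SDs of 0.0337 to 0.31 log2 units, and the mutant has no replicate of its own.

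**Figure D4:**
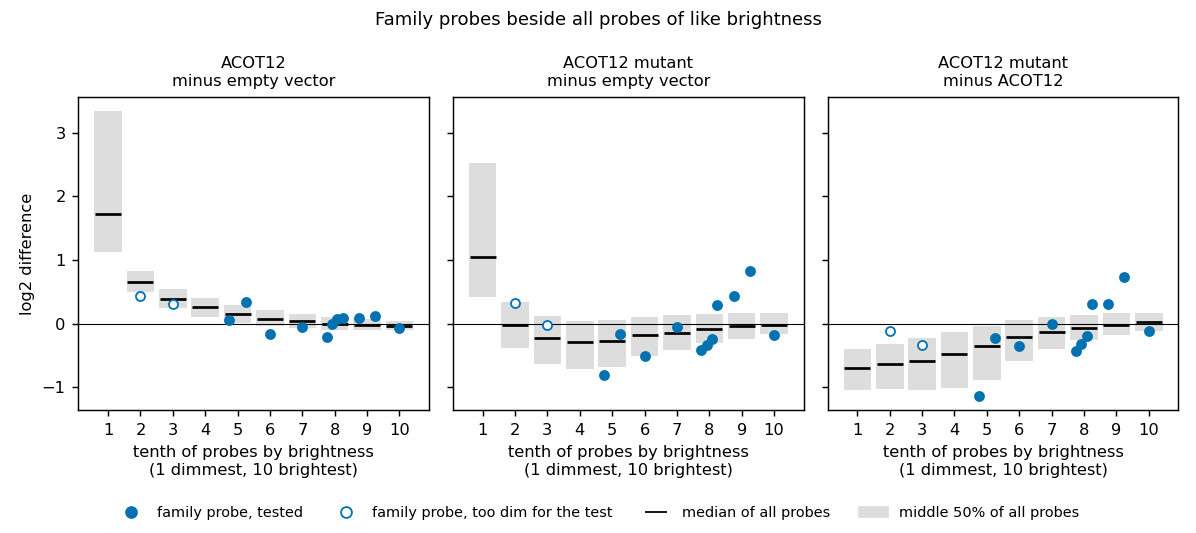
Log2 difference (y axis) in the 3 comparisons by class of brightness, each holding 10% of the probes (x axis), with black bars for the median and grey boxes for the middle 50% of all probes. Filled points are tested family probes and open points the dim ACOT4 and ACOT13 probes, with ACOT12 and ACOT6 left out. Dim probes of all kinds read high in the ACOT12 arrays (median 1.73 in the dimmest class), and most family probes lie in the brighter classes, where the median is near 0.

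The genes around the family gave a like picture with ACOT12. Of 13 tested genes for other thioesterases and coenzyme A-cleaving enzymes 4 read higher and 9 lower than with empty vector (median −0.03, against 0.06 over all probes), and 0 passed. The bile acid conjugating enzyme BAAT, a relative of the type I members, had differences of −0.30, −0.30 and −0.12 at its 3 probes. THEM4, a mitochondrial hotdog-fold thioesterase, read 21914 in the mutant, 23858 and 20886 with ACOT12 and 24442 and 23855 with empty vector, or −0.11 for ACOT12. Of 19 acyl-CoA synthetases 11 read higher and 8 lower (median 0.03), and of 17 PPAR-alpha targets 7 read higher and 10 lower (median −0.03), with 0 passing in either list. Among those targets TXNIP, a regulator of glucose uptake, read 0.56 ± 0.24 and the lipase inhibitor ANGPTL4 0.36 ± 0.20 (limma, adjusted p = 0.987 for each). The 8 tested START-domain genes (median 0.03), 9 acyl-CoA and fatty acid binding genes (0.0010) and 12 genes of coenzyme A synthesis and transport (−0.02) gave 0 calls as well.

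In the mutant array, 3 genes from these lists read below ACOT12 past the threshold. The arm is 1 array with no spread of its own. The test thus sets this array against the ACOT12 arrays with a spread borrowed from the other groups. All probes in brightness classes 3, 4 and 5 (10% of probes each, 1 the dimmest) had medians of −0.58, −0.48 and −0.35 in this comparison. PPT2, a lysosomal thioesterase, read 122 with the mutant, 426 and 319 with ACOT12, and 375 and 219.6 with empty vector (−1.58 ± 0.35 from ACOT12, limma, adjusted p = 0.0457). The long-chain acyl-CoA synthetase ACSBG1 read 114 with the mutant, 426 and 465 with ACOT12, and 384 and 251 with empty vector (−1.95 ± 0.28, adjusted p = 0.032). The medium-chain synthetase ACSM5 read 86.7 with the mutant, 294 and 321 with ACOT12, and 371 and 222 with empty vector (−1.81 ± 0.32, adjusted p = 0.0323). These were 1 of 13 other thioesterase genes and 2 of 19 synthetases, where 9.62% of all probes passed as lower. None of the 3 passed from empty vector, where they read −1.22, −1.44 and −1.71, and none passed against ACOT12 without ACOT12 replicate 1 or 2 (adjusted p from 0.229 to 0.267). PPT2 (0.107) and ACSM5 (0.0507) also lost the call after quantile normalization, PPT2 after cyclic loess (0.079), and all 3 with no filter on dim probes (0.142 to 0.148). No gene of the PPAR-alpha, START-domain, binding or coenzyme A lists passed in a mutant comparison. Markers of other cell types read unevenly in the mutant array. The 4 tested fibroblast genes had a median of −0.83 from empty vector, against −0.13 over all tested probes, with COL1A1 (−1.71) and ACTA2 (−1.44) far below LUM (−0.09) and PDGFRB (−0.23), and the 4 dim ones (COL1A2, COL3A1, DCN and DES) read 0.23 to 1.06 higher. The 5 tested endothelial genes had a median of −0.60, and the dim CLDN5 read 0.49 higher. Those dim genes were left out of the test. For the mutant from empty vector, all probes in brightness classes 1, 2 and 3 had medians of 1.05, −0.01 and −0.23. Set against ACOT12, the mutant array differed by −2.13 for COL1A1, −1.73 for ACTA2 and −1.54 for the endothelial marker VWF. The hepatocyte marker APOC3 differed by −1.87, so drops of this size were not confined to thioesterase and synthetase genes. COL1A1, ACTA2, VWF and APOC3 also passed the same threshold in this comparison. All 5 tested endothelial and all 4 tested fibroblast genes read below ACOT12. Of 12 hepatocyte genes 8 read lower and 4 higher, and of 5 immune genes 3 read lower and 2 higher. The summed intensity of the 8 fibroblast genes was 5348 in the mutant, 8887 to 9389 with ACOT12 and 6675 to 9084 with empty vector, and that of the 6 endothelial genes was 2637 in the mutant, 4229 to 5084 with ACOT12 and 3761 to 4475 with empty vector. All 5 samples were of the MHCC97H line, and bulk RNA does not count cells of any type. The part of these markers in the results was not tested.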

How the data were processed

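RNA of 5 MHCC97H samples was measured on 1-colour arrays. The authors deposited linear probe intensities. How background was removed and arrays were scaled is not given in the sources used here, though the values show 1 factor per array. Per the labels' protocols, RNA was amplified with amino allyl nucleotides and coupled to Cy5. Probes were named through the platform annotation (25893 with 1 symbol, 0 with several, 2371 with none). Values below 0, present on 3 arrays, were set to 0, 1 was added and log2 taken. Array medians lay within 0.5 log2, so no scaling was added. Probes under the 25th percentile of mean log2 (7.34) were left out, leaving 21198, and 1 model of all arrays was fitted with limma 3.58.1 in R 4.3.3 (lmFit, eBayes, two-sided, Benjamini-Hochberg over these probes, threshold 0.05). Residual degrees of freedom were 2 and prior ones 4.22, and the mutant array is assumed to vary like the rest. No exact permutation test was run, since with 2 arrays in each group its smallest p is 0.333. The fit was tested on simulated data.

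The members and gene lists were chosen with earlier results of these data known. Each listed gene stands as its brightest probe by mean, and up to 4 genes per list with the smallest p, PCTP, BAAT and THEM4 could be named, with the 5 tested probes most like ACOT12. ALB and AFP were added as checks of the cell line, and further markers of other cell types (PTPRC, PDGFRB, CLDN5, COL1A2, COL3A1, DCN and DES) were named after their values were seen. No detection flags were used here, and precision is limited by how few arrays there are. Alternatives covered scaling, background, filter, offset, probes per gene, variance model, samples, replicate block and leaving out each replicate. Dividing each array by its factor was added after seeing the data.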

Additional observations from a re-analysis of the deposited data

How the results depend on the processing

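The ACOT12 probe's own differences from empty vector kept their direction under the 17 alternatives that gave it a value. This probe entered the test through the transgene arrays, so its passing in the counts below is a description only. The count of family probes past the threshold, 0 as reported in all comparisons, was, for ACOT12 against empty vector, 1 (ACOT12 itself) with median centring, quantile normalization, cyclic loess, equalized background, the larger offset, the mean of a gene's probes, a variance trend, the replicate block and the array factors undone, and 2 with no filter, where ACOT6 is the second. For the mutant against empty vector it was 1 with quantile normalization, cyclic loess, equalized background, no filter, the larger offset, the mean of probes, the trend and the factors undone, 2 with median centring and 3 with the replicate block. Against ACOT12 it was 4 with median centring, 1 with only the groups compared and 2 with the replicate block. Leaving out 1 replicate gave 0 to 1, 0 to 2 and 0 to 1 in the order of ACOT12 from empty vector, mutant from empty vector and mutant from ACOT12. Over all probes the counts of 0, 6 and 2053 moved to between 0 and 425, 0 and 2945, and 0 and 4095. Limma's prior degrees of freedom also differed, at 4.22 as reported, 2.35 with no filter and 185 with median centring, where a probe's own spread counts least. Median centring moved the median of all tested probes to −0.071, 0.157 and 0.271, against 0.058, −0.126 and −0.141 as deposited. The family counts above are given without the share of all probes passing under the same setting. They therefore show no trait of the family.

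Differences near 0 changed sign with scaling. For ACOT12 from empty vector, median centring gave ACOT2 −0.039 and −0.049, ACOT4 −0.072, ACOT7 (PH_hs_0033361) −0.035 and ACOT13 −0.0060. ACOT4 was −0.12 with quantile normalization, −0.086 with cyclic loess and −0.043 with equalized background. Undoing the factors gave ACOT7 (PH_hs_0025385) 0.060, ACOT8 0.074 and ACOT9 0.11. For the mutant from empty vector, centring gave ACOT2 0.038, ACOT4 0.12, ACOT7 0.10 and ACOT8 0.23, and undoing the factors gave ACOT4 0.066, ACOT7 0.048 and ACOT8 0.17. ACOT4 and ACOT8 were 0.16 and 0.078 with quantile normalization and 0.11 and 0.048 with cyclic loess. For the mutant from ACOT12, centring gave ACOT2 0.087 and 0.21, ACOT4 0.19, ACOT7 0.30, ACOT8 0.41, ACOT11 0.062 and ACOT12 0.16. Quantile normalization gave ACOT4 0.28 and ACOT8 0.18, cyclic loess ACOT4 0.19, ACOT8 0.13 and ACOT12 0.11, equalized background ACOT8 0.011, the replicate block ACOT8 0.0017 and the undone factors ACOT8 0.10. The cause of these turns was not tested. Leaving out 1 replicate spanned, for ACOT12 from empty vector, −0.012 to 0.19 for ACOT2 (PH_hs_0060021), −0.059 to 0.17 for ACOT4, −0.18 to 0.052 and −0.093 to 0.28 for ACOT7 and −0.086 to 0.060 for ACOT9. For the mutant from ACOT12 it spanned −0.24 to 0.00068 for ACOT7 and −0.032 to 0.021 for ACOT8.

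Same-numbered empty vector and ACOT12 replicates deviated together at r = 0.159, and nothing in the labels pairs them. The replicate number as a block sets the mutant array beside the other replicates numbered 1. It leaves fewer residual degrees of freedom than the 2 of the reported fit. With this block the mutant differed from empty vector by 0.94 for ACOT7 and −0.98 for ACOT11. From ACOT12 it differed by 0.84 and −1.31.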
